A study of Mus musculus with 19 samples.

Results

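Recombination hotspots that the castaneus form of PRDM9 set and that were broken on both homologous chromosomes were examined in the testes of a mouse hybrid. A hotspot here is a short stretch of genome where meiotic DNA breaks recur, found as a peak of single-stranded DNA bound by the recombinase DMC1. The members were chosen by measured values, namely as autosomal hotspots attributed to the CAST allele whose share of DMC1 reads from the B6 chromosome lay from 25 to 75%, both ends included, and they are called matched CAST hotspots below. The selection left 1342 members out of 74327 hotspots in the 5 tables of the study, and out of 2471 autosomal CAST hotspots of the same library that carried such a share (54.3%, 95% Wilson interval 52.3 to 56.3).

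The study asked whether chromosome pairing and fertility of hybrid mice change when PRDM9 is altered to bind more sites on both homologs, and its sequencing shows where the breaks then form. It mapped DMC1 in 5 genotypes and trimethylation of lysine 4 of histone H3 (H3K4me3) in 3 of them, from whole adult testis, in 19 samples. The members came from B6SPRTF1 males, offspring of B6 females heterozygous for an engineered Prdm9 CAST allele and SPRET/EiJ (Mus spretus) males, with the genotype CAST/SPRT. The CAST allele carries the zinc fingers of Mus musculus castaneus, with which the protein binds DNA, while the rest of the maternal genome is B6, so the CAST protein acted on B6 and SPRT chromosomes, neither of them castaneus. The same cells carried the SPRT allele of Prdm9, and hotspots of both proteins were found in 1 DMC1 library. H3K4me3 at these hotspots rested on 2 ChIP and 2 input samples of the same genotype, which the deposited values give as a single pooled level, so there was no measure of the spread between animals for any value below. Intervals therefore cover counting error, or the spread among hotspots, and hotspots of 1 library are not replicates of a genotype. The other 4 DMC1 libraries came from B6SPRTF1 males with the genotypes B6/SPRT and Hum/SPRT, and from hybrids of B6 with STUS mice (STUS/Jpia) with the genotypes STUS/B6 and STUS/Hum. Hum stands for an engineered Prdm9 allele with the human zinc-finger array, and each of these libraries was 1 sample.

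PRDM9 binds a DNA motif through its zinc fingers and trimethylates H3K4 on the nucleosomes beside it, and a share of the marked sites is then cut by SPO11. The cut ends are resected, and DMC1 coats the single strands and searches for the homolog, so DMC1 reads report breaks under repair and H3K4me3 reads report binding. Where both homologs keep the motif, PRDM9 can bind at the same position on both, and the broken chromosome finds a partner that is bound as well. Where a motif was lost from one homolog, binding and breaks fall on the other.

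Among the members, 2 had their centre inside a promoter window for which a sequence was at hand, and these windows are printed because they hold the actual bases at a hotspot centre. Both are RefSeq sequences of GRCm38.p6, each 300 bases on the plus strand, and the capitals mark the 21 bases around the hotspot centre. They show the B6 reference only, and the SPRT chromosome differs from it by variants that were not analysed here. The first window, chr12:100778807-100779106, is the promoter of Dglucy, which encodes a D-glutamate cyclase, and the second, chr3:121920662-121920961, is that of the predicted gene Gm34119.
Dglucy: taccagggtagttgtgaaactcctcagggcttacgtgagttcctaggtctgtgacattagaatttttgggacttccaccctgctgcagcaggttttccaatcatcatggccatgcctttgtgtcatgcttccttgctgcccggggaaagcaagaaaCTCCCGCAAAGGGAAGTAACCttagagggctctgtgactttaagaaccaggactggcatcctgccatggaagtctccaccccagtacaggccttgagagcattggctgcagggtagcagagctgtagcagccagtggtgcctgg
Gm34119: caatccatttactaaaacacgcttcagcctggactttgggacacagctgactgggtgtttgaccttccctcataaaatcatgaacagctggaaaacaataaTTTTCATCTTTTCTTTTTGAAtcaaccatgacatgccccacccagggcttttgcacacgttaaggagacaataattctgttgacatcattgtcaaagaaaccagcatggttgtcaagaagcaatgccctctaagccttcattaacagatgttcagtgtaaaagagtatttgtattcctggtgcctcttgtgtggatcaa

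The Dglucy hotspot was centred at chr12:100778973, 84 bases before the annotated start and so upstream of the transcript. Its heat, the score the hotspot caller gave to the DMC1 signal, was 20.9, H3K4me3 enrichment over input was 70.8, and 37.2% of its DMC1 reads and 49.1% of its H3K4me3 reads came from B6 (exact 95% interval of the latter 45.7 to 52.5, 843 reads). The Gm34119 hotspot was centred at chr3:121920773, 139 bases before the start, with a heat of 19.5, an H3K4me3 enrichment of 22.5, and B6 shares of 43.8% in DMC1 and 64.3% in H3K4me3 (56.2 to 71.8, 154 reads). Both were thus below the median member in heat, but on opposite sides of it in H3K4me3. So near a start, H3K4me3 can also come from the promoter itself. Its part in these levels and shares was not tested. The first window held 53% G and C with 3 CpG dinucleotides and the second 41% with 2, beside medians of 53% and 7 over 31365 promoter windows.

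Heat of the members ran from 7.498 to 234 with a median of 27.7 (95% interval of the median 26.2 to 29.1) and quartiles of 17.1 and 48.4. Since heat comes from the library whose reads chose the members, it is described without a test. In the same library the median was 22.3 at the 1129 one-sided CAST hotspots, those outside the 25 to 75% limits. It was 20.9 at the 671 of them cut mainly on B6, 25.6 at the 458 cut mainly on SPRT (23.2 to 28.2), and 22.3 at 939 matched hotspots of the SPRT allele. The median member was therefore 1.24 times as strong as the median one-sided CAST hotspot (1.13 to 1.36 from the intervals of both medians), and its interval overlapped that of hotspots cut mainly on SPRT. All autosomal hotspots had a median of 26.2 (25.5 to 26.7), and CAST hotspots without a B6 share in DMC1 25.8 (24.3 to 27.7). The members' interval overlapped both of these as well.

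Summed heat was unevenly spread over the members, and such sums were not taken for other hotspots. The 311 strongest, 23.2% of all members, held 50% of the members' summed heat, the 100 strongest 22.6%, and the 10 strongest 3.40%. Of the 10 strongest CAST hotspots with a B6 share, 9 were members. Of the 100 strongest, 72 were members (72.0%, Wilson interval 62.5 to 79.9), 20 were cut mainly on SPRT and 8 mainly on B6.

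The strongest member, at chr3:9028668 (mm10, as all positions below) within the long noncoding RNA gene Gm46832, had a heat of 234, B6 shares of 49.8% in DMC1 and 51.5% in H3K4me3 (47.9 to 54.99), and an H3K4me3 enrichment of 46.9. It was cut and marked almost equally on both homologs, and its H3K4me3 share was not called away from 50% by the test described below (adjusted p = 0.469, exact binomial test with Benjamini-Hochberg adjustment).

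Another 8 of the strongest 10 had heats of 155 to 166. They lay at chr4:32573860 in Bach2, which encodes a transcriptional repressor of lymphocytes, at chr13:21422545 in Pgbd1, at chr3:34587896 in the long noncoding RNA gene Sox2ot, at chr6:18172781 in Cftr, the chloride channel gene, at chr5:74321223 in both Scfd2 and Gm32064, and at chr12:69815038 in both Map4k5 and 4930512B01Rik. A pair lay between genes, at chr9:14691733, 1.79 kb from the pseudogene Gm18997, and at chr13:27045821, 11.7 kb from Prl, the prolactin gene. The hotspot beside Prl was the least balanced of the 8 in DMC1, with 28.7% of reads from B6, while its H3K4me3 reads were 46.9% from B6 (42.4 to 51.4). In the others of these 8 the DMC1 share lay between 42.0% at Bach2 and 59.4% beside Gm18997.

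H3K4me3 stood higher at members than at one-sided CAST hotspots by a wider margin than heat did. Enrichment over input in the 1 kb window of a member ran from 0.370 to 171 with a median of 43.7 (42.2 to 45.1) and quartiles of 29.8 and 61.0. The median was 27.3 at one-sided CAST hotspots (26.3 to 28.5), 26.7 at those cut mainly on B6, 28.5 at those cut mainly on SPRT and 30.6 at matched SPRT hotspots. The members' median was thus 1.60 times that of the one-sided hotspots (1.48 to 1.71), and their interval overlapped none of these 4. This level takes the reads of both homologs together, and a level per homolog was not computed. The median share of H3K4me3 reads from B6 was 54.3% at members. It was 94.8% at hotspots cut mainly on B6 and 24.9% at those cut mainly on SPRT.

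The difference lay in the ChIP reads and not in the input. Median ChIP coverage of the window was 251.5 at members and 158 at one-sided CAST hotspots, while median input coverage was 29 and 28. Enrichment was above 10 at 1320 members (98.4%) and above 1 at 1340. The members were 1342 of the 9592 autosomal hotspots of the table, and their 1 kb windows together held 20.8% of the ChIP coverage of all of these.

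The most enriched member, at chr2:121567943 in Frmd5, which encodes a FERM-domain protein, reached an H3K4me3 enrichment of 171 with a heat of 17.6, below the members' median. It was followed by chr4:149047153 in Pex14, a peroxisomal import gene, with an enrichment of 139 and a heat of 58.1, and by chr11:117557772 in the long noncoding RNA gene Gm51933, with 137 and 46.6. After these came chr9:119101836, 0.608 kb from Dlec1, with an enrichment of 131 and a heat of 18.3, and chr6:86643877, 3.17 kb from Mxd1, which encodes a MYC-network repressor, with 130 and 37.6. None of the 5 was among the 10 strongest by heat. The member beside Dlec1 lay 673 bases from a promoter start, where H3K4me3 can also come from the promoter itself, and its part in the value was not tested.

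Heat per unit of H3K4me3 was lower at members. The ratio of heat to enrichment ran from 0.0803 to 24.6 with a median of 0.692 (0.663 to 0.725), beside 0.894 at one-sided CAST hotspots (0.844 to 0.932), 0.826 at those cut mainly on B6, 0.972 at those cut mainly on SPRT and 0.862 at matched SPRT hotspots. The members' median was 0.773 times that of one-sided hotspots (0.712 to 0.859). Heat and enrichment both entered this ratio and rose together. Spearman's rho across hotspots was 0.462 over 1342 members and 0.412 over 1129 one-sided hotspots, which share the libraries. The comparison was therefore repeated within ranges of H3K4me3.

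The 2471 CAST hotspots were divided into 5 equal-sized groups by H3K4me3 (quintiles). Against all one-sided hotspots together, the difference in heat per H3K4me3 was present in the 2 lowest quintiles and close to nil in the others. The members' median ratio was 0.809 and 0.827 times that of one-sided hotspots in the lowest and the next quintile, then 1.03, 0.988 and 0.977 times in the upper ones. The lowest quintile spanned enrichments of 0.370 to 20.7, so levels within it were not alike. In these 2 lowest quintiles the members' median heat alone was 0.924 and 0.865 times that of one-sided hotspots. Median heat of the members was 14.7 in the lowest quintile (13.5 to 15.8), 26.2 in the middle quintile (22.7 to 28.7) and 42.0 in the top quintile (38.8 to 45.4). One-sided hotspots had 15.9, 26.1 and 37.7 in those quintiles, with intervals that overlapped the members' in each. In the second quintile the medians were 18.97 (17.5 to 19.98) and 21.9 (20.2 to 23.5), and these intervals did not overlap. The share of CAST hotspots that were members rose with H3K4me3 from 30.1% (26.2 to 34.3) in the lowest quintile through 40.3, 53.5 and 66.5% to 81.3% (77.6 to 84.5) in the top quintile. In that top quintile the 52 hotspots cut mainly on SPRT had a median heat of 45.6 and the 40 cut mainly on B6 25.5, with the members between them.

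**Figure D1:**
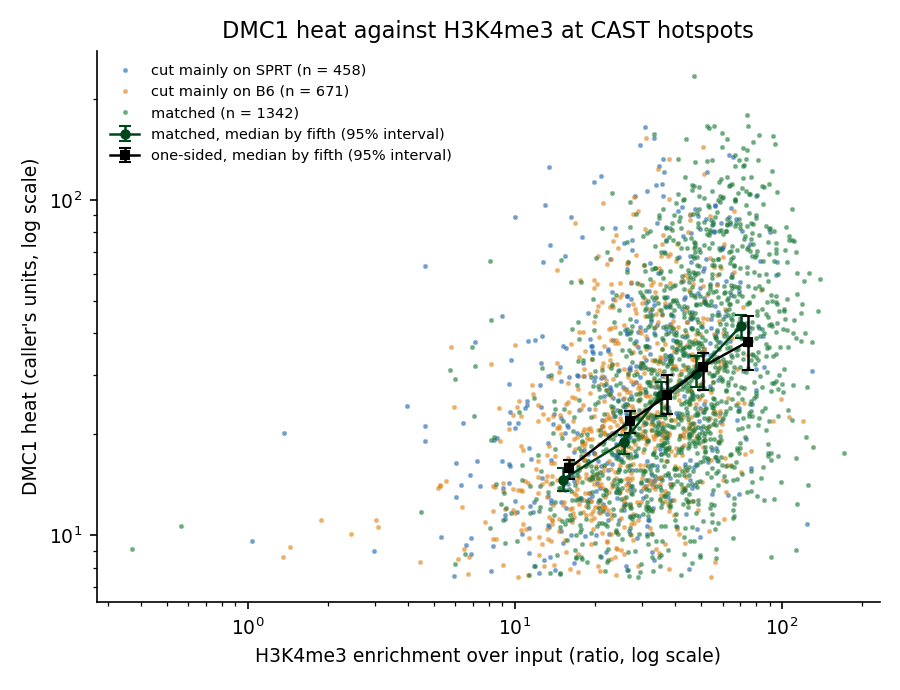
DMC1 heat (vertical, caller's units, log scale) against H3K4me3 enrichment over input (horizontal, ratio, log scale) at 2471 autosomal CAST hotspots with a B6 share, each point 1 hotspot. Lines join medians by quintile of H3K4me3 with 95% intervals, and members (14.7 to 42.0) and one-sided hotspots (15.9 to 37.7) run close together while members fill the upper range of H3K4me3.

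The extremes of the ratio showed how far breaks and marks could part. The highest value, 24.6, belonged to a member at chr12:65458126 with an enrichment of 0.370 from a ChIP coverage of 1, and the second, 18.995 at chr1:140474404 in the potassium channel gene Kcnt2, to an enrichment of 0.562 from a ChIP coverage of 3. The third was 8.11 at chr5:57630793 in the long noncoding RNA gene 4932441J04Rik, with a heat of 65.7 and an enrichment of 8.10. The first pair thus rested on almost no ChIP reads. The lowest ratios were 0.0803 at chr12:87471415 in Snw1, a splicing factor gene, 0.0945 at chr5:113214556 in 2900026A02Rik, and 0.103 at the hotspot in Frmd5, where heats of 8.63 to 17.6 met enrichments of 91.2 to 171.

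On which homolog the members were marked was measured apart from DMC1, by H3K4me3 reads that carry a variant between B6 and SPRT. The B6 share of these reads at members ran from 17.4 to 92.9% with a median of 54.3% (53.9 to 54.8) and quartiles of 50.1 and 60.5%. It was measured from a median of 402.5 reads a member and at least 10 reads at 1341 of the 1342. These reads outnumbered the ChIP coverage of the 1 kb window at 1284 members (95.7%), with a median ratio of 1.63. How they were counted is not given in the sources used here, so intervals built on them may be too narrow.

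Of these 1341 members, 1311 (97.8%, Wilson interval 96.8 to 98.4) also lay from 25 to 75% in H3K4me3. The same held for 18.3% of CAST hotspots cut mainly on B6 (15.5 to 21.4), for 49.6% of those cut mainly on SPRT (44.995 to 54.1) and for 95.1% of matched SPRT hotspots (93.5 to 96.3). The limits were thus met in both assays at nearly every member, and at nearly every SPRT hotspot chosen the same way.

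The members outside the limits in H3K4me3 numbered 30, of which 26 were above 75% B6 and 4 below 25%. Their median heat was 17.2, their median enrichment 24.99 and their median read number 179.5, all below the medians of the members as a whole. The 4 marked mainly on SPRT, named after their values were seen, were chr5:38609508 at 17.4% (34.1 kb from Polr2d-ps2), chr10:63334394 at 18.4% (in Sirt1, a deacetylase gene), chr17:25605043 at 21.6% (in Lmf1, a lipase maturation gene) and chr13:112871598 at 24.0% (in Mtrex, an RNA helicase gene). Their DMC1 shares from B6 were 44.2, 33.3, 26.1 and 28.1%, so the first was cut far more evenly than it was marked.

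A share of 50% was then tested at each hotspot with a 2-sided exact binomial test, adjusted by the Benjamini-Hochberg method over all 9487 autosomal hotspots of the table with at least 10 reads. At an adjusted p below 0.05, 715 of 1341 members (53.3%) departed from 50%, where 82.6% of all autosomal hotspots tested did. Of the members, 606 (45.2%) departed toward B6, beside 63.0% of all hotspots, and 109 (8.13%) toward SPRT, beside 19.6%. One-sided CAST hotspots were called at 92.9% and matched SPRT hotspots at 59.96%. The members' shares of calls were below the background in either direction, and among those called the B6 side led by 606 to 109.

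The departures differed in size. Called members lay a median of 10.7 percentage points from 50% (range 3.16 to 42.9). The 626 others lay a median of 2.30 points from it (range 0 to 25), at like read numbers (medians of 407 and 392). The direction of the calls depended on the share tested against. The median of all autosomal hotspots of the table was 64.3%. It is not a level of no preference, since these hotspots had a median DMC1 share of 81.25% from B6. It also lies above the members' median of 54.3%, so a lead of calls toward SPRT follows from the choice. With 64.3% in place of 50%, 71 members were called toward B6 and 939 toward SPRT. Together these calls covered 75.3% of the members tested, beside 83.4% of all autosomal hotspots. Other groups of hotspots gave other references. The median B6 share was 57.6% at 939 matched SPRT hotspots and 72.7% at 15 hotspots marked KO. It was 19.4% (quartiles 6.67 and 57.1%) at 928 hotspots without an allele. Which protein set this last group is unknown, and it may include hotspots of the CAST protein. Only its median lay below 50%. A preference of read mapping for B6, the reference genome, cannot be told apart from a preference of the mark by these values.

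DMC1 and H3K4me3 did not divide alike between the homologs. The DMC1 share from B6, which chose the members, had a median of 47.0%, and its difference from the H3K4me3 share of the same hotspot had a median of -7.71 percentage points (DMC1 minus H3K4me3, 95% interval -8.25 to -6.96, 1341 members). DMC1 was the lower of the pair at 1013 members (75.5%), the higher at 325, and equal at 3. Cutting was more often on the SPRT side than marking, with 755 members below 50% in DMC1 and 323 below 50% in H3K4me3. Matched SPRT hotspots showed a median difference of -4.95 points in the same direction. Over 2464 CAST hotspots without the limits the median difference was -4.06 points, so its size differed with the selection.

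The limits on DMC1 held its share near the middle while leaving H3K4me3 free, which shapes any relation between them. Over the 1341 members the shares had a Pearson's r of 0.519 and a Spearman's rho of 0.503 across hotspots, beside 0.912 and 0.884 over 2464 CAST hotspots without the limits. The points share both libraries, the read mapping and the set of variants. From the members with 25 to 35% B6 in DMC1 to those with 65 to 75%, the median H3K4me3 share rose through 49.0, 52.3, 55.1, 57.9 and 64.5%. The range of cutting in these bins was set by the limits. The shares lay within 10 points of each other at 736 members (54.9%) and over 25 points apart at 64.

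**Figure D2:**
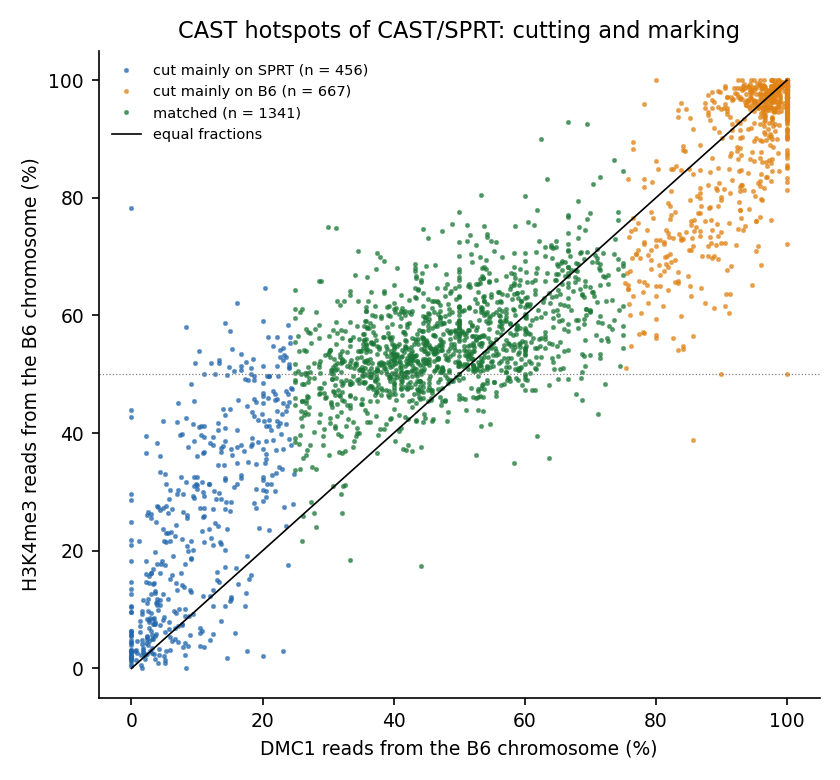
Share of H3K4me3 reads from B6 (vertical, %) against share of DMC1 reads from B6 (horizontal, %), each point 1 autosomal CAST hotspot, with members between 25 and 75% on the horizontal axis. Members (n = 1341) lie mostly above the line of equal shares, with a median difference of -7.71 points (DMC1 minus H3K4me3).

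The widest differences, among members with at least 50 such reads, all had more B6 in H3K4me3 than in DMC1. They were chr13:4177770, 6.79 kb from the pseudogene Gm2123 (31.3% in DMC1 and 74.8% in H3K4me3), chr1:143783871 in the deubiquitinase gene Uchl5 (25 and 64.4%), chr10:18511386 in Nhsl1 (28.6 and 65.8%), chr10:100455448 in Tmtc3 (28.9 and 65.8%), and chr4:115022589 in Stil, a centriole duplication gene (34.5 and 70.9%). They were picked for this difference, so the values are a description, and the number of reads behind a DMC1 share is not given in the tables. At heats of 11.8 to 62.7, 3 of the 5 were weaker than the median member.

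The spread of the DMC1 share was smaller at strong members, and since this share chose the members and rests on unknown read numbers, it is described only. From the weakest to the strongest quintile of members by heat, the SD of the DMC1 share fell from 13.2 to 10.8 points and the median size of the difference between both assays from 10.04 to 8.04 points. The median DMC1 share itself was 47.4% in the weakest and 45.6% in the strongest quintile. Over the same quintiles median H3K4me3 enrichment rose from 27.3 through 36.7, 43.8 and 49.3 to 58.0. The median difference kept its sign, at -8.21 points in the weakest quintile and -7.19 in the strongest. By DMC1 share, median heat was 28.1 at 25 to 35% B6, 29.9 and 30.4 in the middle bins, 26.3 at 55 to 65% and 22.4 at 65 to 75%.

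Close to the limits, membership turned on small differences. Exactly 25% was the share of 13 members and exactly 75% of 8. Within 2 points of the lower limit lay 50 members and 28 one-sided hotspots, and within 2 points of the upper limit 20 and 21. Apart from those on the limits, the nearest inside were chr18:24830957 in Fhod3 at 25.5% (heat 29.95, H3K4me3 enrichment 55.1) and chr5:148213791 in Mtus2 at 25.4% (27.3 and 53.9), and at the top chr9:60222873 in Thsd4 at 74.5% (21.6 and 31.0) and chr9:70061723, 18.1 kb from Gm39369, at 74.4% (22.9 and 47.3). The nearest outside were chr1:93218771 in Crocc2 at 24.8% (72.3 and 60.2), chr17:42864505 in Cd2ap at 24.6% (34.7 and 32.2), chr1:177376825, 6.08 kb from Gm36904, at 75.4% (100.3 and 37.9) and chr11:59542578 in the inflammasome gene Nlrp3 at 75.5% (30.5 and 35.5). The 4 outside were all stronger than the 4 inside, by heats of 30.5 to 100.3 against 21.6 to 29.95.

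Members were found on each of the 19 autosomes, from 43 on chromosome 19 to 105 on chromosome 1. The members' number followed the number of CAST hotspots on the autosome (Pearson's r 0.945, Spearman's rho 0.961, 19 autosomes of 1 library) and its span (0.863 and 0.829). The share of CAST hotspots that were members ran from 48.5% on chromosome 10 (40.2 to 56.9) to 60.9% on chromosome 6 (52.4 to 68.8), and these extreme intervals overlapped. Per Mb of the span covered by hotspots, chromosome 3 had the fewest with 0.423 and chromosome 19 the most with 0.743.

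Median heat of the members exceeded that of one-sided CAST hotspots on 17 of 19 autosomes, with ratios from 0.832 on chromosome 19 to 1.69 on chromosome 4. Median H3K4me3 was higher on 18 of 19, from 0.999 times on chromosome 15 to 2.11 times on chromosome 4, and heat per H3K4me3 was higher on 2 of 19, from 0.638 times on chromosome 12 to 1.03 times on chromosome 15. The median H3K4me3 share from B6 stayed between 52.3% on chromosome 14 and 56.8% on chromosome 10, and so above 50% on each. The strongest member of an autosome had a heat of 77.7 on chromosome 19 up to 234 on chromosome 3, and all 19 of these lay between 36.5 and 59.4% B6 in DMC1.

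**Figure D3:**
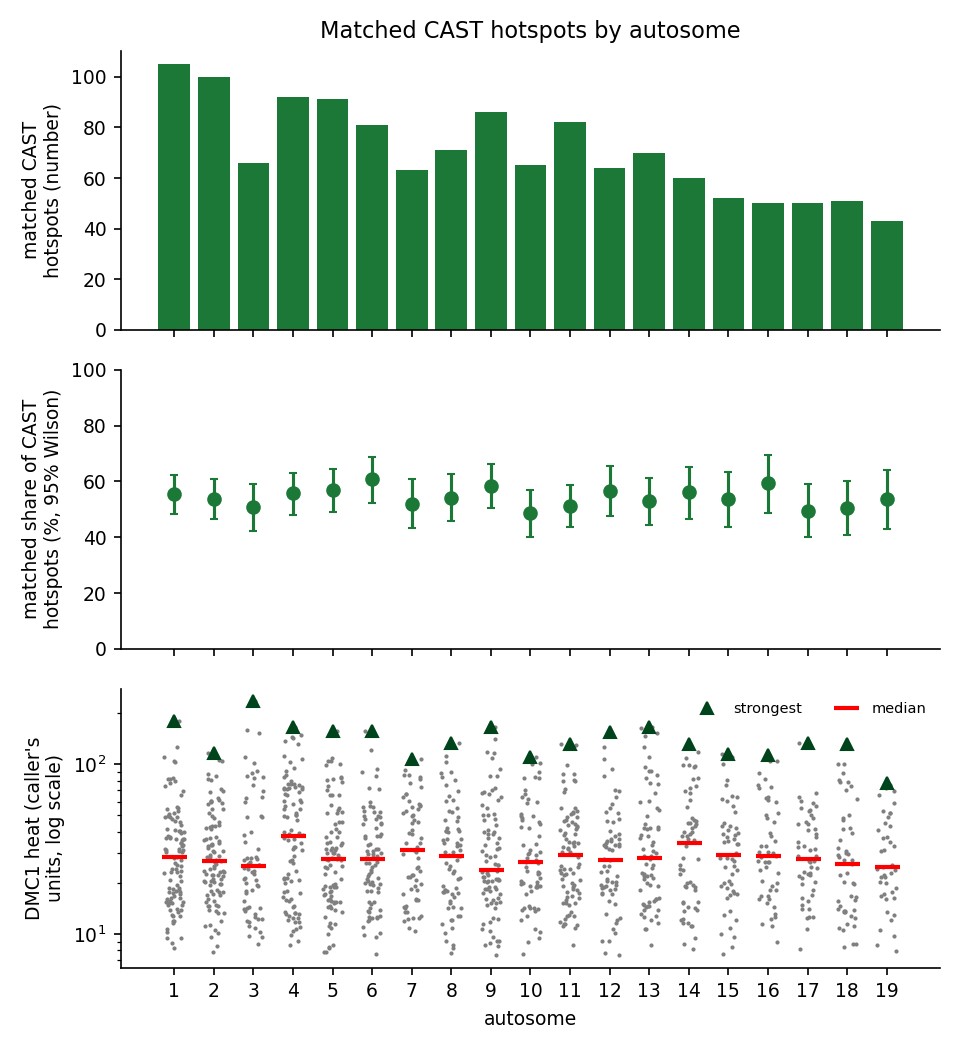
Matched CAST hotspots by autosome: their number (top), their share of CAST hotspots with a B6 share in % with 95% Wilson intervals (middle), and the heat of each member on a log scale, in the caller's units, with the median and the strongest marked (bottom). Numbers fall from 105 to 43, the shares stay between 48.5 and 60.9%, and the strongest members reach 77.7 to 234.

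Neighbouring members were about 1 Mb apart. The 1323 gaps between centres of neighbouring members had a median of 1066 kb (969 to 1150.5) and quartiles of 397 and 2300 kb, beside medians of 1352 kb for the less numerous one-sided CAST hotspots and 392 kb for all CAST hotspots. Gaps below 10 kb numbered 18, gaps below 100 kb 97, and gaps above 5 Mb 95. The closest pair lay 1.16 kb apart on chromosome 4, at 153623143 and 153624300, with heats of 26.1 and 49.7 and B6 shares of 71.3 and 53.0% in DMC1. With their 1 kb windows nearly touching, the stronger hotspot of the pair was the more evenly cut. The widest gap, 19515 kb, ran on chromosome 1 from 14235515 to 33750727. CAST hotspots without a DMC1 share, 999 of 3470, could not be classed and so ended no gap. Some of them lay within this widest gap.

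The members were spread along the whole of the autosomes. From the centromeric to the distal quintile of the hotspot span, 19.7, 20.3, 19.3, 19.8 and 20.8% of the members were found, while one-sided CAST hotspots had 23.0, 18.9, 18.2, 17.6 and 22.3%. The nearest CAST hotspot of any kind was a median of 190.2 kb from a member and 175 kb from a one-sided hotspot. The nearest hotspot of the SPRT allele, the competing protein in these cells, was 139 and 125 kb away, and 66 members (4.92%) had one within 10 kb. One-sided hotspots had one that near at 5.14%.

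More of the members than of the one-sided hotspots lay inside genes, as annotated on GRCm38.p6. Of the members 926 (69.0%, 66.5 to 71.4) lay between the start and end of a gene, and 62.2% in a protein-coding one, beside 61.2% (58.3 to 64.0) and 53.9% of one-sided CAST hotspots and 62.1% (61.1 to 63.1) of all autosomal hotspots. Matched SPRT hotspots had 68.1%. Exons and introns were not told apart. Members outside genes were a median of 11.2 kb from one, and one-sided hotspots 15.2 kb.

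Few members lay at promoters. Leaving out chromosome 18, 25 of 1291 members (1.94%, 1.32 to 2.84) lay within 1 kb of a promoter start, as did 1.95% of one-sided CAST hotspots. These 25 had a median H3K4me3 enrichment of 61.7, a heat of 25.4 and a ratio of 0.411, beside 43.4, 27.9 and 0.699 at the 1266 farther away. Away from promoters the members' median enrichment was still above the 27.2 of the one-sided hotspots, and their heat above 22.4.

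The other libraries show which members recur when the CAST protein is absent. Counting hotspots with centres within 500 bp, 323 members (24.1%) recurred in at least 1 of the 4 other libraries and 1019 in none, and the recurrences were nearly all in the STUS hybrids. In STUS/B6, 317 members (23.6%) recurred, 308 of them at hotspots attributed to the STUS allele and 9 at hotspots without an allele. In STUS/Hum, 198 members (14.8%) recurred, 193 of them attributed to STUS. These hits were 1.83% of the hotspots of STUS/B6 and 1.97% of those of STUS/Hum. No such share over all autosomal hotspots of CAST/SPRT is given here, nor a number of matches from position alone. One-sided CAST hotspots recurred at 22.0 and 13.0%, and matched SPRT hotspots at 0.213 and 0.319%, so recurrence in STUS hybrids was found over CAST hotspots in general.

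In the other B6SPRTF1 libraries, which share both genomes with CAST/SPRT but lack its CAST protein, recurrence was rare. A hotspot lay within 500 bp of 5 members (0.373%) in B6/SPRT and of 2 (0.149%) in Hum/SPRT. The same held for 5 one-sided CAST hotspots (0.443%) in each of these libraries and for 938 of 939 matched SPRT hotspots in each, so rare recurrence was common to the CAST hotspots with a B6 share. The 5, named after their values were seen, were attributed to the B6 allele there and lay at chr1:172361798 in the potassium channel gene Kcnj10, chr2:73909442 in Atp5g3, chr5:33267838 in the corepressor gene Ctbp1, chr8:84180132, 1.17 kb from Mir181c, and chr10:122864157 in Ppm1h. The 2 were attributed to the Hum allele and lay at chr3:138800480 in Tspan5 and chr11:120944085, 4.40 kb from Slc16a3. Their centres stood 102 to 478 bases from the other hotspot. Whether these few were more than neighbours by position of another protein's hotspots was not tested.

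Members that recurred had the higher medians in both assays. The 323 had a median heat of 35.8, an H3K4me3 enrichment of 47.5 and a ratio of 0.760 in CAST/SPRT, beside 26.2, 42.2 and 0.680 at the 1019 others. Of the 100 strongest members, 41 recurred in STUS/B6 (41.0%, 31.9 to 50.8) and 31 in STUS/Hum (31.0%, 22.8 to 40.6), against 23.6% (21.4 to 26.0) and 14.8% (13.0 to 16.8) of all members. In STUS/B6 the hotspots at members had a median heat of 119, where those at one-sided CAST hotspots had 95.4 and all autosomal hotspots of that library 46.8. Heat of a member in CAST/SPRT and of its counterpart rose together only weakly (Spearman's rho 0.255 across 317 hotspots in STUS/B6 and 0.307 across 198 in STUS/Hum, the chromosomes of B6 being shared).

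Most recurring members were not matched in the STUS hybrids. There the B6 chromosome was the same as in CAST/SPRT, but the homolog came from STUS. At the 296 recurring members with a B6 share in STUS/B6, the median share was 93.1% (quartiles 61.5 and 99.1%), 192 (64.9%) were above 75% and 96 (32.4%) from 25 to 75%. In STUS/Hum the median was 89.2% over 190 members, with 131 (68.9%) above 75% and 56 (29.5%) within the limits. Recurring CAST hotspots cut mainly on B6 in CAST/SPRT were above 75% at 74.6 and 71.9% in these libraries, those cut mainly on SPRT at 62.6 and 61.2%, and all STUS hotspots at 54.3 and 62.1%. Cutting mainly on B6 was thus the common state of STUS hotspots in general, and the members' shares lay between those of the CAST classes cut on either side.

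The B6 chromosome could also be followed at hotspots cut unequally in CAST/SPRT. Below 25% B6 in STUS/B6 were 8 of 296 members (2.70%), 0 of 142 hotspots cut mainly on B6 in CAST/SPRT, which allows a share of up to 2.11%, and 15 of 91 cut mainly on SPRT (16.5%). In STUS/Hum the values were 3 of 190 (1.58%), 2 of 89 (2.25%) and 6 of 49 (12.2%). Over all STUS hotspots 9.34 and 7.15% were below 25%. The counts of CAST hotspots there were small, and the differences between the classes were not tested. The 39 of the 100 strongest members with a share in STUS/B6 had a median of 98.7% B6, and 32 (82.1%) were above 75%.

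**Figure D4:**
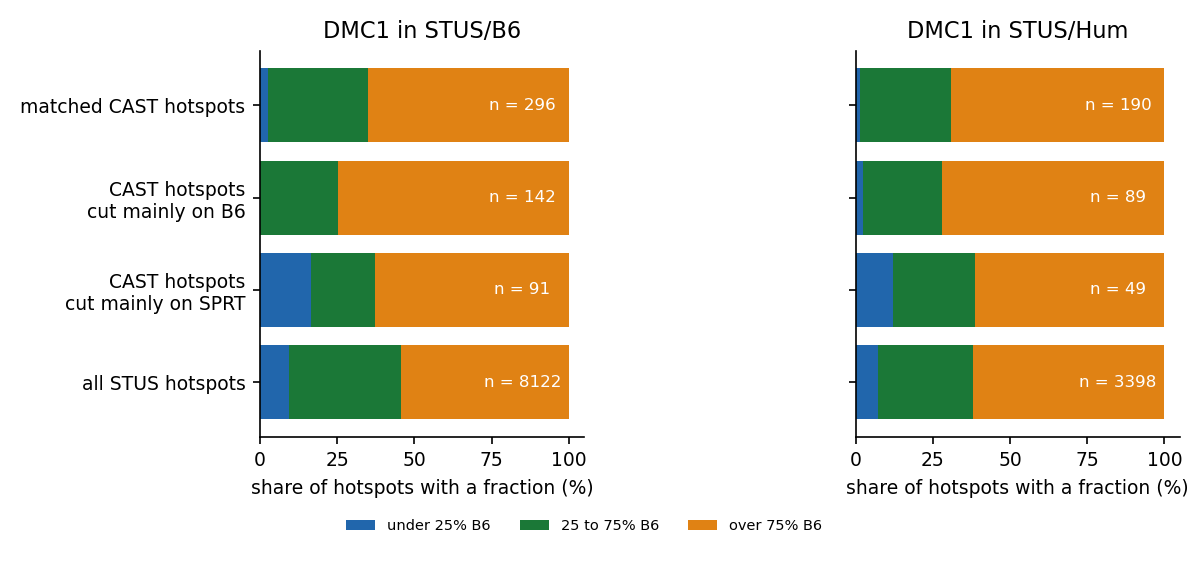
Share of hotspots (horizontal, %) in 3 classes of B6 share in DMC1, in STUS/B6 (left) and STUS/Hum (right), for CAST hotspots of CAST/SPRT that recur there, by how they were cut in CAST/SPRT, and for all STUS hotspots of the library, with the number behind each bar. Members (n = 296 and 190) were above 75% B6 at 64.9 and 68.9% and below 25% at 2.70 and 1.58%.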

How the data were processed

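DMC1 single-stranded DNA sequencing (5 libraries) and H3K4me3 ChIP-seq of testis were used as the authors' deposited hotspot tables, on mm10. The submitters' processing notes name BWA, whose version is not given in the sources used here. The authors called hotspots, attributed each to a Prdm9 allele by comparison with mice of other alleles, and assigned reads to homologs by SNPs. Deposited heat is a score of the caller. Deposited fractions give the share of reads from B6 and were multiplied by 100. The authors' coverage signal of input and ChIP windows is unnormalized, and their ratio of ChIP over input is deposited with no formula. Counts of SNP-carrying H3K4me3 reads were deposited as whole numbers. The DMC1 read numbers and library totals are not given, so the DMC1 depth is unknown. Another 13 columns of values, holding p-values and a mark of sharing, were not used.

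Tables were matched to genotypes by the alleles they list and their hotspot totals. Members and lists were chosen with earlier results of these data known. Named hotspots were the 10 largest by heat, the 5 largest by H3K4me3, the 3 highest and 3 lowest by heat per H3K4me3 (input coverage of at least 10), the 5 widest differences between assays (at least 50 reads), the 2 nearest on either side of each limit, the closest pair and the widest gap. A hotspot among the 10 largest by heat is not reported here. In a departure from that rule the bases at a centre were read only where a RefSeq promoter window (250 bases before to 50 after a start) holds it, since no genome was used. Chromosome 18 was not used for promoters. Genes and promoters came from RefSeq, GRCm38.p6, the assembly of mm10.

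Fractions were tested against 50% with exact binomial tests, adjusted over the table (scipy 1.17.1, statsmodels 0.14.6, pandas 2.3.3), and the procedure was tested on simulated data. Intervals are 95% Wilson, exact binomial or order-statistic intervals of a median. Alternatives changed the DMC1 limits, the minimum of reads, the share tested against, the form of the enrichment, the distance for recurrence, and the base of the share.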

Additional observations from a re-analysis of the deposited data

How the results depend on the processing

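No paired analysis was possible because the H3K4me3 samples that share replicate numbers are deposited as 1 pooled column, and leaving out a replicate was not possible for the same reason. Of 31 alternatives, 16 left the value within its interval, or a count within 1.5 times. With DMC1 limits of 10 to 90%, 91.1% of the hotspots lay from 25 to 75% in H3K4me3, median heat was 25.9, median enrichment 41.0 and median spacing 816 kb. With limits of 40 to 60% these were 98.9%, 30.3, 46.0 and 1972 kb, and heat per H3K4me3 was 0.726. Of the 734 hotspots tested within those limits, 373 (50.8%) departed from 50%, beside 82.6% of all autosomal hotspots. Among the 50% strongest CAST hotspots the members' median heat was 45.3. Averaged over quintiles of H3K4me3, the ratio of heat per H3K4me3 of members to one-sided hotspots was 0.925 in place of 0.773. The members were 38.7% of CAST hotspots with those lacking a DMC1 share in the base, and 50.6% with chromosome X added, of which males carry 1 copy and where 0 of 182 hotspots lay within the limits. In protein-coding genes alone lay 62.2% of members. With the median of all hotspots, 64.3%, in place of 50%, 1010 members were called in place of 715. The leading side changed, which follows from a value above the members' own median. These 1010 were 75.3% of the members tested, beside 83.4% of all autosomal hotspots. With reads limited to the ChIP coverage, an alternative chosen after seeing the data, 601 were called, 520 toward B6 and 81 toward SPRT. These 601 were 44.9% of the 1340 members tested, beside 78.8% of all autosomal hotspots. The alternatives away from promoters were also chosen after seeing the data. With 1 DMC1 library, no value carries an error between animals, and shares at weak hotspots rest on few reads of unknown number.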

Other observations

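Autosomal CAST hotspots without a DMC1 share from B6 could not be placed inside or outside the limits, and there were 999 of them. Their H3K4me3 reads gave a B6 share at 979, of which 760 (77.6%, Wilson interval 74.9 to 80.1) lay from 25 to 75%, with a median of 58.3%. Those 760 had a median heat of 27.4 and a median H3K4me3 enrichment of 38.4, and the other 219 had 22.4 and 25.7. Above 75% lay 9.30% and below 25% lay 13.1% of the 979.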
